A study of Mus musculus with 4 samples.

Results

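The IL-4 receptor gene Il4ra, its transcription factor Stat6 and 8 genes tied to the response of lymphocytes to IL-4 (Gata3, Gfi1, Maf, Batf, Nfil3, Xbp1, Ecm1 and Rybp) were described across naive CD8 T cells of Klf13 knockout (KO) and wild-type (WT) mice. The genes were listed by name, and all 10 were found among the 19938 genes of the table, each read from the probe set paired with its symbol alone that had the highest mean over the 4 arrays. The cells were sorted by flow cytometry from spleens of BALB/c mice, with 2 samples labelled KLF13 KO and 2 labelled wild type, each on its own Affymetrix array. The labels give the strain for both groups and name no treatment. The labels do not state the age of the mice, which part of Klf13 was deleted, or whether each sample came from its own mouse. The p-values therefore rest on the variation among these 4 samples, some of which may be technical.

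IL-4 binds a receptor made of the IL-4 receptor alpha chain, encoded by Il4ra, and the common gamma chain. The kinases JAK1 and JAK3 at the receptor then phosphorylate STAT6, which enters the nucleus and switches on target genes. In the thymus of BALB/c mice, IL-4 made by NKT cells is known to drive CD8 T cells toward a memory-like state with high Eomes, and Klf13 encodes a zinc-finger factor that binds GC-rich and CACCC sequences.

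Of the 10 genes, Gfi1 rose in the KO (1.43-fold) and the other 9 did not pass the test. The signs were mixed. Gfi1, Ecm1, Maf and Xbp1 were higher in both KO arrays than in both WT arrays, Il4ra, Stat6 and Rybp were lower in both, and Gata3, Batf and Nfil3 overlapped between the groups. The test was limma with Benjamini-Hochberg adjustment over all genes and a threshold of 0.05, which called 448 of 19938 genes, or 2.25% (1.19% higher and 1.05% lower in the KO). The count was 264 without KO replicate 1, 1536 without KO replicate 2 and 277 without WT replicate 1, and the share of calls that were higher in the KO was 53.1%, or 21.8% with each array centred on its median. Groups without overlap were common in this table of 2 arrays against 2: 24.4% of all genes had both KO arrays above both WT arrays, and 23.2% had both below. The median log2 fold change of the 10 genes was -0.048, against 0.015 over all genes. It was -0.062 over the 9969 brighter genes, which include all 10. All fold changes are KO minus WT on the log2 scale, each level is a log2 probe-set value with SD over n = 2 arrays, and levels are not compared between genes, since probe sets differ in brightness.

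**Figure D1:**
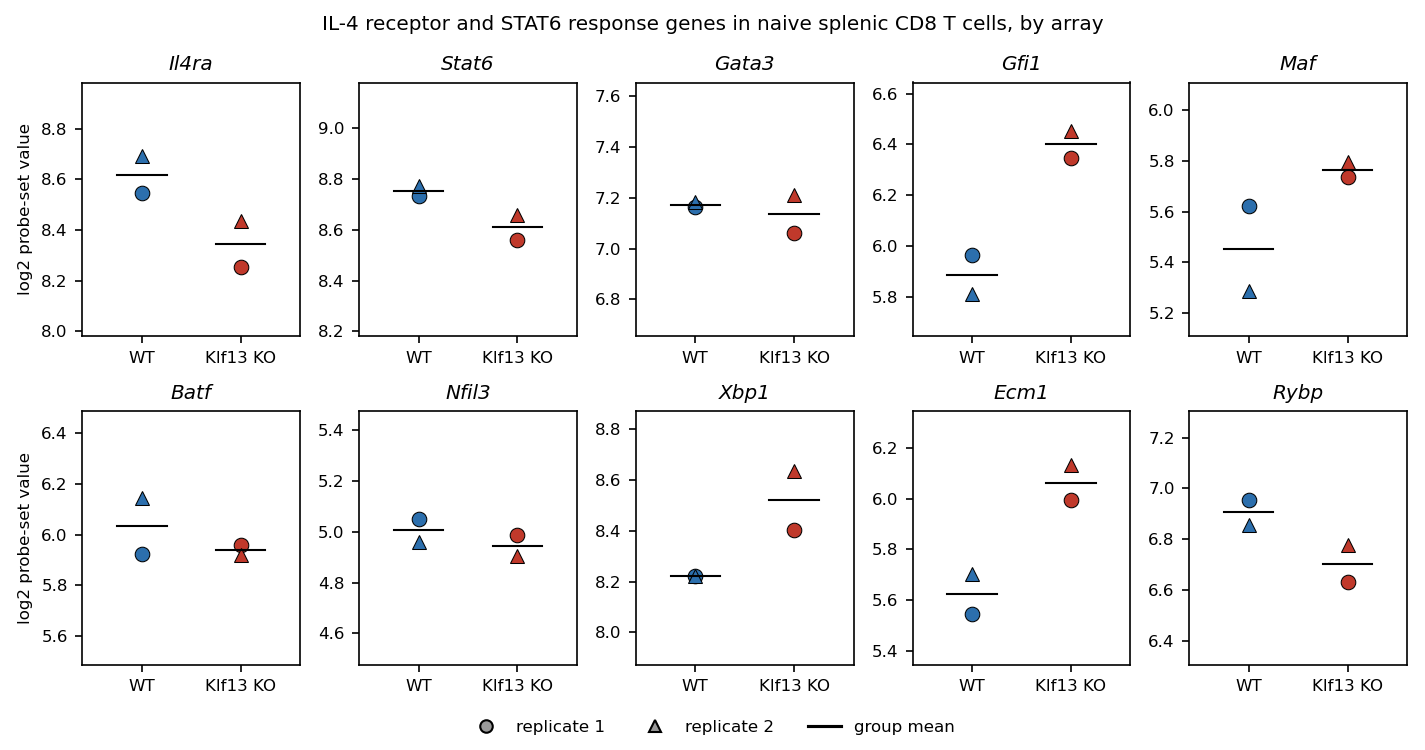
Log2 probe-set values (vertical axes, each spanning 1 log2 unit) of the 10 genes in the 2 WT and 2 KO arrays; circles are replicate 1, triangles replicate 2 and lines the group means. Both KO arrays lie above both WT arrays for Gfi1, Maf, Xbp1 and Ecm1, and below them for Il4ra, Stat6 and Rybp.

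The KO label was checked on Klf13 itself, which read 5.46 and 5.43 in the KO arrays and 7.01 and 7.15 in the WT arrays (log2 fold change -1.63, SE 0.10, limma adjusted p = 3.75e-05). A probe set outside the deleted part would check nothing, and that part is not known here. The 6 measured CD8 T cell markers had mean levels of 10.20 and 10.27 in the KO arrays and 10.31 and 10.33 in the WT arrays. Of the 6, 0 passed the test, 4 were lower in the KO and 2 were higher. The lowest, at -0.34, was the 1 with an unadjusted limma p under 0.01, as had 6.51% of all genes.

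Il4ra encodes the chain that binds IL-4 and is itself raised by IL-4 in lymphocytes. It read 8.25 and 8.43 in the KO arrays and 8.55 and 8.69 in the WT arrays. The groups did not overlap, but the gap between the higher KO and the lower WT array was smaller than the gap between the arrays of either group. The means were 8.34 ± 0.13 and 8.62 ± 0.10, a log2 fold change of -0.27 (SE 0.10, limma adjusted p = 0.228). Its 95% interval ran from -0.51 to -0.04 before any adjustment for the number of genes. Of all genes, 88.9% had a smaller absolute log2 fold change than Il4ra. Il4ra lies on chromosome 7, as does Klf13, but their distance was not examined and any bearing of it on Il4ra was not tested.

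Stat6 encodes the factor that the receptor activates. It read 8.56 and 8.66 in the KO arrays against 8.73 and 8.77 in the WT arrays. The KO arrays were the lower ones, by 0.14 on average (log2 fold change -0.14, SE 0.09, limma adjusted p = 0.497). The interval of -0.35 to 0.07 leaves room for a larger fall than that, no change or a small rise. These arrays therefore do not show that Stat6 was alike in both genotypes.

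Gfi1 encodes a zinc-finger repressor that IL-4 and STAT6 induce in T helper cells and that is also needed by granulocyte precursors. It read 6.35 and 6.46 in the KO arrays and 5.96 and 5.81 in the WT arrays. Every KO array was above every WT array, and the gap between the groups was wider than the spread within either. The means of 6.40 ± 0.08 and 5.89 ± 0.11 gave a log2 fold change of 0.51 (SE 0.10, 95% interval 0.29 to 0.74, limma adjusted p = 0.0286). The call was lost without KO replicate 1 (adjusted p = 0.0630), without WT replicate 2 (0.222) and when every probe set was tested singly (0.185), while the change stayed between 0.43 and 0.59 in all 11 alternatives.

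In a fit with 1 array fewer, the lone array of a group is assumed to vary like the other group. Without either WT array, limma gave all 56 genes followed through the alternatives the same SE of 0.17. A call lost or gained there can therefore come with a fold change that hardly moved, and both are given.

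Over the 4 arrays the profiles nearest to that of Gfi1, after each gene was centred on its own mean, were those of Rgs18, H2-Ea and Rab31. Their root-mean-square differences from Gfi1 were 0.009, 0.010 and 0.032 on the log2 scale. Rgs18, a regulator of G-protein signalling of platelets and myeloid cells, changed by 0.51. H2-Ea, an MHC class II chain of antigen-presenting cells, changed by 0.50, and Rab31, a vesicle-traffic GTPase, by 0.49. The 3 were picked for this likeness, so fold changes close to that of Gfi1 follow from the choice and add nothing to it. The same holds for their response to leaving out an array. Without KO replicate 1 or WT replicate 2 their log2 fold changes lay between 0.40 and 0.57. Such likeness was frequent with 4 arrays: 185 genes lay within 0.1 of the Gfi1 profile.

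Ecm1 encodes a secreted matrix protein that T helper 2 cells make. It read 5.99 and 6.13 in the KO arrays and 5.55 and 5.70 in the WT arrays, again with no overlap. The log2 fold change of 0.44 (SE 0.10, 95% interval 0.21 to 0.66) had a limma adjusted p = 0.0601, just outside the threshold. Ecm1 passed in 4 of 11 alternatives, among them the test of the 9969 brighter genes (adjusted p = 0.0269), that of the gene table quantile-normalized again (0.0428) and that with a variance trend (0.0489).

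Promoter sequence is shown for Gfi1 and Ecm1, which had the highest fold changes of the 10, and for Il4ra, which had the lowest. Each is the 250 bases before the annotated start, 5′ to 3′ on the gene's strand, from RefSeq for GRCm38.p6, and capitals mark GGGCGG and CACCC on either strand.
Gfi1 (chr5:107725806-107726055, minus strand): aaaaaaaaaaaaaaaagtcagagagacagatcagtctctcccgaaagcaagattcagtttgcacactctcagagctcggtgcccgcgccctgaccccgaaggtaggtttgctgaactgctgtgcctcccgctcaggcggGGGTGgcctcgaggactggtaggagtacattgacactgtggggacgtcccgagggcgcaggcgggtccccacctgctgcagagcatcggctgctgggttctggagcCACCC
Ecm1 (chr3:95739570-95739819, minus strand): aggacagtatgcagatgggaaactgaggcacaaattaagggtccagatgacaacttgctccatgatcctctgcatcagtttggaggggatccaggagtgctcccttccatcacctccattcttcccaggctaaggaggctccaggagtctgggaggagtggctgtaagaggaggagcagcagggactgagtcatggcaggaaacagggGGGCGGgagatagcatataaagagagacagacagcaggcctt
Il4ra (chr7:125552021-125552270, plus strand): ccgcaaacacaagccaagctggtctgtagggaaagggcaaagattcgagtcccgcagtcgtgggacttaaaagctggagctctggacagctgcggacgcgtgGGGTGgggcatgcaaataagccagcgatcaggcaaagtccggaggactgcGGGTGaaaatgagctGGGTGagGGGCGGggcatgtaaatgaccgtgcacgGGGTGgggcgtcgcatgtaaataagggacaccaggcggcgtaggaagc
The table held 9 promoters for 8 of the 10 genes, 2 of them for Gfi1, of which the first is printed; no promoter of Maf or Rybp was used here. The palindrome TTCNNNNGAA, the form that STAT6 prefers, was found in 0 of the 9, and TTCNNNGAA, which other STAT factors share, in 0 as well. Over all 32851 promoters of that length, 5.85% held the first and 7.02% the second. GGGCGG stood upstream of Il4ra, Gata3, Batf, Nfil3 and Ecm1, against 32.7% of all promoters. CACCC stood upstream of Il4ra, Stat6, Gata3 and Gfi1, in 4 of the 9 promoters, against 52.0% of all. The 4 motifs were each searched on both strands and counted apart, also where they overlap. The Il4ra promoter held CACCC 4 times and the printed Gfi1 promoter 2 times. The other Gfi1 promoter, which is not printed, held 0 matches to any of the 4 motifs. These matches describe letters in a window and are no record of binding.

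Gata3 encodes the master factor of T helper 2 cells, which is also present in CD8 T cells. It read 7.06 and 7.21 in the KO arrays and 7.16 and 7.18 in the WT arrays. Both WT values lay between the KO values, and the log2 fold change of -0.037 (SE 0.10, 95% interval -0.25 to 0.18, limma adjusted p = 0.888) turned to 0.048 once the table was quantile-normalized again and to 0.038 without KO replicate 1.

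Maf, which encodes the factor c-Maf that acts on the Il4 gene, read 5.73 and 5.79 in the KO arrays and 5.62 and 5.29 in the WT arrays. The KO arrays were close together and the WT arrays were not: the SD was 0.04 in the KO and 0.24 in the WT. The log2 fold change of 0.31 (SE 0.12, limma adjusted p = 0.228) was 0.48 without WT replicate 1 and 0.14 without WT replicate 2, so its size rested on which WT array was kept.

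Batf encodes an AP-1 factor that works with IRF4 in activated T cells. It read 5.96 and 5.92 in the KO arrays and 5.92 and 6.14 in the WT arrays, with the KO values overlapping WT replicate 1. The log2 fold change was -0.095 (SE 0.10, limma adjusted p = 0.699), and it was 0.014 without WT replicate 2. Nfil3, the gene of a basic leucine zipper factor that IL-4 raises in T and NK cells, read 4.99 and 4.90 in the KO and 5.05 and 4.96 in the WT arrays. The groups overlapped (log2 fold change -0.060, SE 0.09, 95% interval -0.27 to 0.15), and the value ran from -0.11 without WT replicate 2 to -0.013 without WT replicate 1.

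Xbp1 encodes a factor of the unfolded protein response that IL-4 raises in B cells and that plasma cells need. It read 8.40 and 8.64 in the KO arrays, and 8.22 in each WT array. The WT arrays were nearly equal, and KO replicate 2 lay 0.23 above KO replicate 1. The log2 fold change was 0.30 (SE 0.10, 95% interval 0.07 to 0.53, limma adjusted p = 0.194), and it was 0.18 without KO replicate 2 and 0.41 without KO replicate 1.

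Rybp, which encodes a subunit of Polycomb repressive complex 1, read 6.63 and 6.78 in the KO arrays and 6.96 and 6.86 in the WT arrays. The KO arrays were lower by 0.20 on average (log2 fold change -0.20, SE 0.10, limma adjusted p = 0.341). Rybp was the only one of the 10 genes with a further probe set, and that probe set disagreed: it read 6.25 and 5.92 in the KO and 6.01 and 5.97 in the WT arrays, a log2 fold change of 0.096 (SE 0.13). The mean of both probe sets gave a log2 fold change of -0.054.

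**Figure D2:**
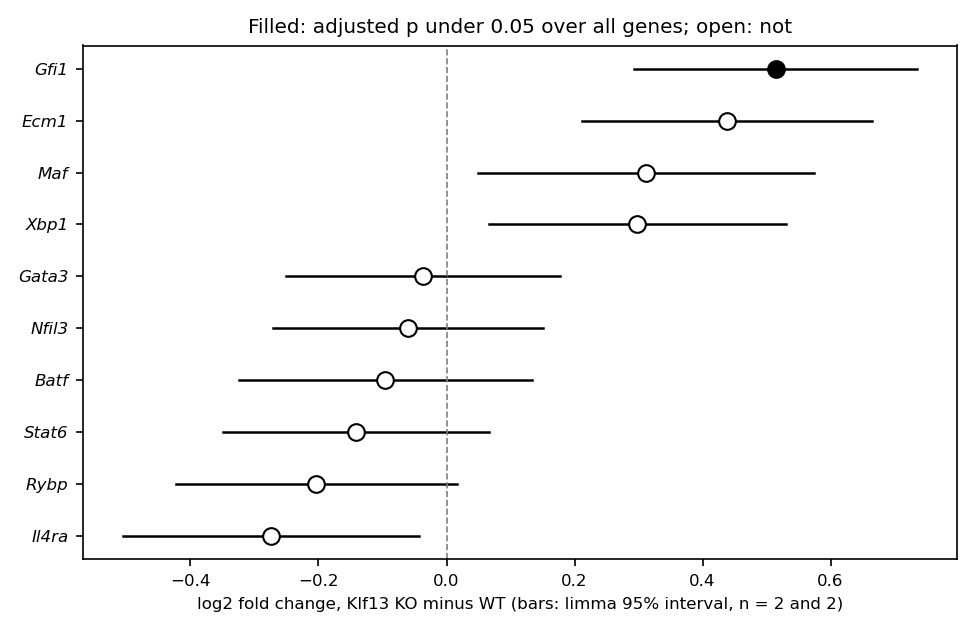
Log2 fold change of each of the 10 genes, KO minus WT (horizontal axis), with its unadjusted limma 95% interval; the filled circle passed at an adjusted p under 0.05 over all genes and the open circles did not. Gfi1, at 0.51, is the filled circle, and the intervals of Ecm1, Maf, Xbp1 and Il4ra also leave out 0.

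The arrays of a group were not equivalent for these genes. KO replicate 1 read lower than KO replicate 2 in 8 of the 10, all but Batf and Nfil3. Over all genes that was so for 54.9%, and for 79.9% of the 9969 brighter genes, which include all 10. WT replicate 1 was below WT replicate 2 in 5 of the 10. Among these brighter genes the median log2 fold change was -0.062.

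Upstream of STAT6, genes for ligands, receptor chains, kinases and adaptors were measured for 9 of 11 listed, and 0 rose or fell at the adjusted threshold, with 0 at an unadjusted limma p under 0.01. Over all genes 6.51% were under that p. The median of the 9 was 0.050, within a range of -0.077 to 0.19, and 4 of them, Il4 included, had mean levels under 4. Il4, the ligand, read 4.17 and 3.60 in the KO arrays and 3.69 and 3.70 in the WT arrays. KO replicate 1 alone was high, and the log2 fold change of 0.19 (SE 0.16, limma adjusted p = 0.593) was 0.47 without KO replicate 2 and -0.093 without KO replicate 1. The adjusted p = 0.0377 of the former fit sets that single KO array against the spread of the WT pair, so it says nothing of the spread in the KO. Il13, a ligand that shares the alpha chain, showed the same uneven KO pair, at 4.40 and 4.03 against 4.14 and 4.17. Jak1 read 10.6 and 10.7 in the KO against 10.7 and 10.8 in the WT arrays (log2 fold change -0.077), and Irs2, an adaptor of the IL-4 receptor, had a log2 fold change of 0.15. Il2rg and Jak3 were not analysed here.

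Of 10 genes for inhibitors of the pathway, 1 rose and 9 did not pass, with a median of -0.015. Cish, a SOCS family inhibitor induced by STAT5 and by cytokines including IL-4, was the one that rose. It read 5.51 in each KO array and 4.96 and 5.04 in the WT arrays (log2 fold change 0.51, SE 0.09, limma adjusted p = 0.0218). The fold change stayed between 0.42 and 0.55 in all 11 alternatives, while the call was lost without KO replicate 1 (0.51, adjusted p = 0.0626), without WT replicate 1 (0.46, adjusted p = 0.201) and with every probe set tested singly (0.51, adjusted p = 0.148). Ptpn2, a phosphatase of JAK and STAT proteins, had a log2 fold change of -0.22 and Bcl6, a repressor that competes with STAT6 for DNA, of -0.20. Socs2, another SOCS gene, had 0.22. None of these last 3 passed.

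Among 15 measured genes of 18 listed as further IL-4 or T helper 2 targets of lymphocytes, 1 rose and 14 did not pass, and 8 of the 15 had mean levels under 4, below the median of the table. Il17rb, a receptor chain for IL-25, rose. It read 5.002 and 5.356 in the KO arrays and 4.649 and 4.623 in the WT arrays (log2 fold change 0.54, SE 0.12, limma adjusted p = 0.0493). The fold change was 0.37 without KO replicate 2 (adjusted p = 0.0508) and 0.72 without KO replicate 1, where the call held. The call was also lost without WT replicate 1 (0.56, adjusted p = 0.0548) or WT replicate 2 (0.53, adjusted p = 0.0667), where the fold change hardly moved, once the table was quantile-normalized again (0.47, adjusted p = 0.120) and with every probe set tested singly (adjusted p = 0.258). Il2ra (0.38), Epas1 (0.26) and the chemokine receptor gene Ccr4 (0.28) did not pass. With an array left out, Il2ra ranged from 0.22 (without WT replicate 2) to 0.54 (without WT replicate 1), and Ccr4 from 0.15 (without KO replicate 2) to 0.41 (without KO replicate 1). The list median was 0.058. Of 12 IL-4 targets of macrophages, 0 passed and 11 had mean levels under 4; Mgl2 (0.29) and Ccl24 (0.23) had the smallest p.

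The genes for proteins that work with the 10 gene products showed no called change: of 25 measured, 0 passed and 1 had an unadjusted limma p under 0.01. That was Mafk, a small MAF protein, at 6.194 and 6.642 in the KO arrays and 6.999 and 6.846 in the WT arrays (log2 fold change -0.50, SE 0.14, limma adjusted p = 0.109). It passed in 5 of 11 alternatives, among them without KO replicate 2 (-0.73, adjusted p = 0.0277) and without WT replicate 2 (-0.58, adjusted p = 0.0313), but it was -0.28 without KO replicate 1 (adjusted p = 0.254) and -0.43 without WT replicate 1 (adjusted p = 0.307). The KO arrays lay below the WT arrays and far from each other. Atf6, an unfolded protein response sensor beside Xbp1, had -0.25 (-0.39 without KO replicate 2, adjusted p = 0.0470, and -0.12 without KO replicate 1), the Gfi1 paralog Gfi1b -0.22 and the AP-1 gene Junb, a partner of Batf, 0.21.

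Genes of the memory-like CD8 state that IL-4 promotes were listed without regard to whether each is high or low in it. Of 11 measured of 15 listed, 2 fell, 2 rose and 7 did not pass. The 7 ranged from -0.27 to 0.27. Among them, Cd44 (-0.084) and Il2rb (-0.0071) overlapped between the groups. Rises and falls in this list are therefore not opposed by their sign alone, and its median of -0.0071 is no measure of the state. Eomes, the T-box factor that IL-4 raises in CD8 T cells, read 6.66 and 6.67 in the KO and 8.12 and 8.11 in the WT arrays, and the chemokine receptor gene Cxcr3 read 8.16 and 8.19 against 9.10 and 9.20. The integrin gene Itga4 rose by 0.52 (limma adjusted p = 0.0194) and Id2, an inhibitor of E proteins, by 0.44 (limma adjusted p = 0.0494). The call for Itga4 was lost without WT replicate 1 (0.49, adjusted p = 0.148), without WT replicate 2 (0.54, adjusted p = 0.0554) and with every probe set tested singly (0.52, adjusted p = 0.145), with little change in the fold. That for Id2, close to the threshold, was lost without any one of the 4 arrays (fold changes of 0.36 to 0.52, adjusted p from 0.0509 to 0.441), after centring on the median (0.35, adjusted p = 0.0673) and with every probe set tested singly (adjusted p = 0.214). Eomes fell by 1.45 on the log2 scale, and in the same arrays the 10 genes ranged from -0.27 to 0.51. IL-4 signalling was not measured here, and its part in the fall of Eomes was not tested.

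Markers of other cells also differed between the groups, in some lists more than in others. Of 9 granulocyte progenitor markers 7 rose, Mpo by 1.97, Elane by 1.597, Cd34 by 1.66, Ctsg by 1.70, Prtn3 by 1.71, Prg2 by 1.53 and Ms4a3 by 0.88, and the mean level of the list was 6.805 and 7.001 in the KO arrays against 5.494 and 5.691 in the WT arrays. Gfi1 is active in such precursors. Mature neutrophil markers, 8 in all, had mean levels of 3.30 to 3.40 in the KO and 3.12 to 3.17 in the WT arrays, and 0 of them passed. All 8 were higher in the KO, with a median of 0.22, and all 8 had mean levels under 4. The part of these cells in the rise of Gfi1 was not tested.

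Of 7 plasma cell markers 2 rose, Mzb1 by 0.64 and Derl3 by 0.52, with Jchain (0.35) and Sdc1 (0.31) not passing, and the list mean was 6.434 and 6.617 in the KO against 6.198 and 6.163 in the WT arrays. KO replicate 2 was the highest array for this list and for Xbp1. It was also the highest for the granulocyte progenitor, B cell, NKT and innate T, and macrophage and dendritic lists. KO replicate 1 was below it in 79.9% of the brighter genes, so this likeness is not particular to plasma cell markers. Of 9 B cell markers Ighm rose by 0.80 and the other 8 did not pass. The value of Ighm is from the brightest of its 3 probe sets, and their mean gave 0.56. Of 8 macrophage and dendritic cell markers 4 rose, Lyz2 by 1.15, Mpeg1 by 0.84, Tyrobp by 0.62 and Csf1r by 0.58. The other 4 did not pass, and 1 of the 8 was lower in the KO, at -0.34. Of 7 basophil and mast cell markers Mcpt8 rose by 0.63. The other 6 did not pass, and 1 of the 7 was lower, at -0.30. Of 6 NKT and innate T cell markers Il23r rose by 0.47, and Il17rb, which is in that list too, also rose. Of 7 CD4 T cell markers Cxcr5 fell by 1.13 and Tnfsf8 fell by 0.55. The other 5 did not pass, and the 7 went both ways, with 3 higher in the KO (up to 0.39) and 4 lower. With an array left out, some of these calls were lost at much the same fold: Derl3 without WT replicate 1 (0.49, limma adjusted p = 0.144) or 2 (0.54, adjusted p = 0.0565), Csf1r without WT replicate 1 (0.53, adjusted p = 0.0791), and Il23r without WT replicate 1 (0.44, adjusted p = 0.260) or 2 (0.49, adjusted p = 0.115). Tnfsf8 was lost without KO replicate 1 (-0.49, adjusted p = 0.0591) or WT replicate 1 (-0.55, adjusted p = 0.0620). Tyrobp was lost without WT replicate 1 (0.45, adjusted p = 0.238), KO replicate 1 (0.59, adjusted p = 0.144) or KO replicate 2 (0.65, adjusted p = 0.0501). In bulk samples fewer cells of a type and less RNA per cell cannot be told apart, and the part of these cells in the values of Xbp1, Ecm1, Maf, Cish and Il17rb was not tested.

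**Figure D3:**
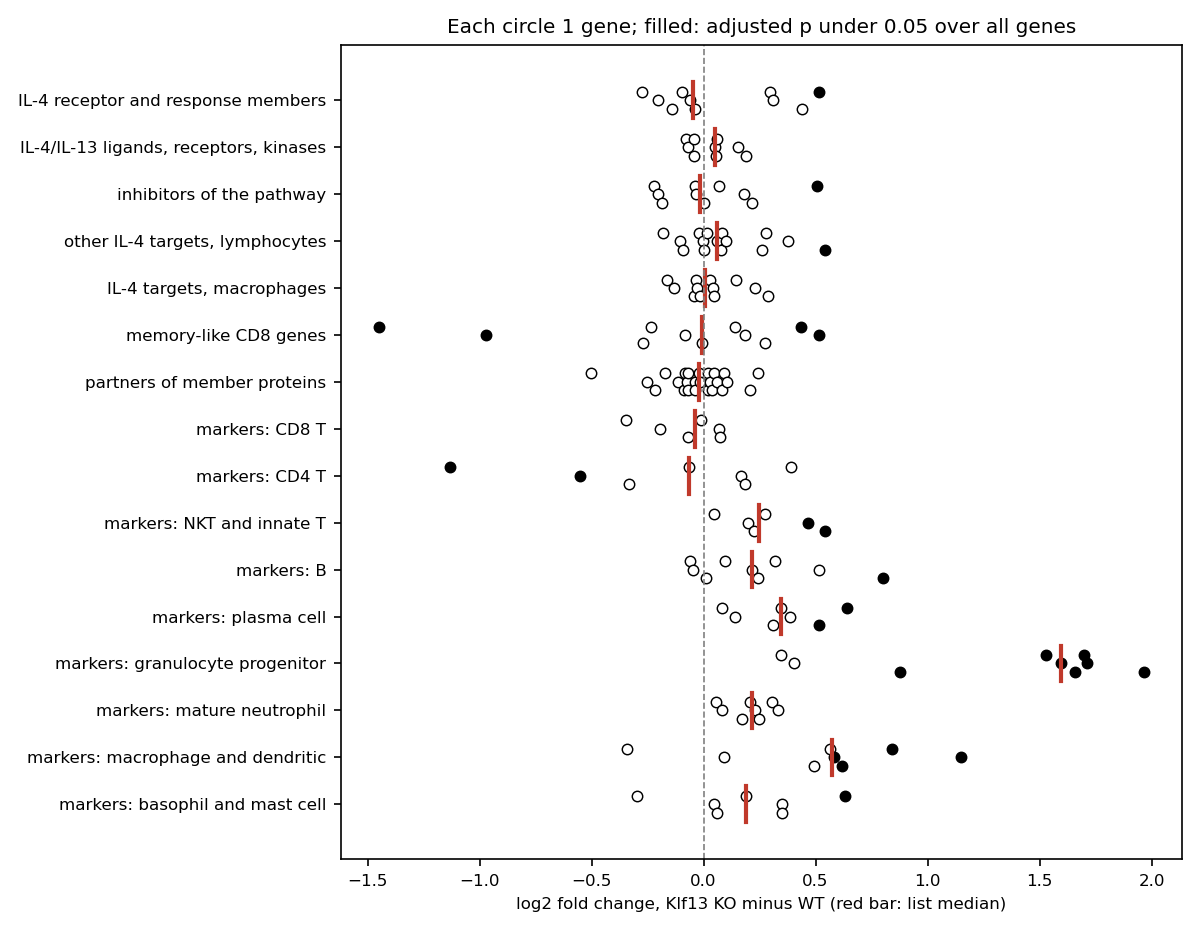
Log2 fold change, KO minus WT, of every measured gene (circles) of the 10 IL-4 receptor and response genes, 6 accompanying lists and 9 marker lists (rows); filled circles passed at an adjusted p under 0.05 over all genes and red bars are list medians. The medians of the IL-4 lists lie between -0.048 and 0.058, and that of the granulocyte progenitor markers is 1.597.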

How the data were processed

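RNA of 4 samples was hybridised to 4 arrays of 1 colour. The deposited table holds log2 probe-set values, and the submitters' processing notes name RMA and Partek without versions. RMA evens out the distributions of arrays and compresses the folds of dim genes. No detection calls were used, so no gene was called absent. The table has 35556 probe sets, of which the platform annotation pairs 21789 with 1 symbol, 1621 with several and 12146 with none. Symbols were updated by gene identifier (GRCm38.p6 names, 21698 matched), and each of 19938 genes was read from its brightest probe set of 1 symbol. KO and WT were compared with limma 3.58.1 (R 4.3.3; a linear model with genotype as its term, moderated by eBayes, two-sided, 8.06 prior degrees of freedom, Benjamini-Hochberg over all genes), which was tested on simulated data. With 2 arrays a group, an exact permutation test cannot go below p = 0.333, so none was used. The number of arrays limits the precision. The members, lists and naming rule were chosen with earlier results of these data known. Named were the 10 members, Klf13, the genes of each list that passed or had the smallest p, and the 3 profiles nearest to a called member. Cd44 and Il2rb were named besides and were not followed through the alternatives.

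As alternatives, each probe set was tested on its own, probe sets of a gene were averaged, the 9969 brighter genes were tested alone, the table was quantile-normalized again, and the fit used median centring, a variance trend with robust moderation, a replicate block or 1 array fewer.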

Additional observations from a re-analysis of the deposited data

How the results depend on the processing

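Of the 10 genes, the number called was 1; it was 0 when every probe set was tested singly, and 2 (Gfi1 and Ecm1) among the 9969 brighter genes, with quantile normalization of the gene table and with a variance trend. It ranged from 0 to 1 with an array left out. The replicate numbers pair no samples by the labels, and deviations of equally numbered arrays correlated with r = 0.007 over genes. With the replicate block, limma gave all 56 genes followed through the alternatives the same SE of 0.11. There 2 of the 10 genes were called, Ecm1 at a limma adjusted p = 0.00481, and Il2ra, Mafk and Jchain also passed. Il4ra, Stat6, Maf, Nfil3, Xbp1 and Rybp passed in 0 of 11 alternatives and kept their sign there, though a further, dimmer probe set of Rybp had the opposite sign (0.096). Gata3 turned to 0.048 and Il13 to -0.027 with quantile normalization, and Il13 to -0.025 with median centring. With an array left out, Gata3 ranged from -0.11 to 0.038, Batf from -0.21 to 0.014, Il4 from -0.093 to 0.47 and Il13 from -0.12 to 0.24. The median over the 10 genes was -0.13 with median centring, where that of all genes was -0.071, and 0.0014 with quantile normalization. It ranged from -0.047 to -0.0071 with an array left out.

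Over all genes, 448 calls became 39 with every probe set, 1088 with median centring, 831 with the variance trend, 1187 with the replicate block and 264 to 1536 with an array left out. The share of calls that were higher in the KO was 53.1%, and 21.8% with median centring. Of 29 called genes named here, 5 were called in all alternatives (Klf13, Eomes, Mpo, Elane and Cd34). The causes were not tested.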
